A study of Macaca fascicularis with 3 samples.

Results

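GPHA2, ACTG2, FERMT1, DPEP2, RAB43, TCL1B, IFITM1 and APOBEC3H are 8 of the 26017 monkey features counted in 3 single-cell RNA libraries of cynomolgus monkey (Macaca fascicularis) germ cells. They were picked for being highest in early germ cells, so their difference between early and later germ cells is a description here and carries no test. All 8 symbols were found in the feature lists. The germ cells came from cynomolgus embryonic stem cells of 1 line, 15XRi-AGVT#7, whose genotype is labelled wildtype and which carries TFAP2C-EGFP (AG) and DDX4-tdTomato (VT) reporters. They had been cultured as aggregates with mouse ovarian somatic cells, a xenogeneic reconstituted ovary or xrOvary, up to the point the labels write as ag49+52. The mouse cells were taken at embryonic day E13.5, E14.5 or E15.5, and each stage gave 1 library. Monkey cells positive for AG, VT or both were sorted, mouse cells negative for both were sorted separately, and the sorted cells were mixed before loading, so sorting and mixing fixed how many monkey cells met how many mouse cells. A cell with neither reporter was not collected as a germ cell.

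Germ cells that have settled in the fetal ovary first divide as oogonia and keep genes of the pluripotency and primordial germ cell programme, among them POU5F1, NANOG, TFAP2C, SOX17 and PRDM1. Later they switch these genes off, turn on genes of the synaptonemal complex and enter meiosis. The 8 genes come from unrelated families that are better known elsewhere: a hormone subunit, a muscle actin, an integrin activator, a dipeptidase, a Golgi GTPase, an AKT co-activator, and a pair of antiviral proteins.

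Monkey germ cells were taken as barcodes with at least 10000 unique molecular identifiers (UMIs, counted transcripts) and 2 to 20% of them in the 13 mitochondrially encoded genes. This left 537, 536 and 1113 germ cells in the E13.5, E14.5 and E15.5 libraries, 2186 in all, out of 7827 barcodes. Germ cells at or above 208.7 CPM (UMIs of a gene per 1000000 UMIs of the cell or sum) of POU5F1, a cut set from the POU5F1 values themselves, were called POU5F1-high, and the others POU5F1-low. POU5F1-high cells numbered 71, 139 and 253, which is 13.2% (95% Clopper-Pearson interval 10.5 to 16.4), 25.9% (22.3 to 29.9) and 22.7% (20.3 to 25.3) of the germ cells; POU5F1-low cells numbered 466, 397 and 860. Barcodes with under 1% mitochondrial UMIs, 1708, 753 and 1775 of them, are called mouse barcodes: only monkey genes were counted, so their UMIs are mouse reads that map to a monkey gene, or free monkey RNA. How well the mouse reads of each gene map was not measured. A low level in mouse barcodes therefore does not show that the mouse gene was low. The median depth was 47127 to 62593 UMIs in POU5F1-high cells, 41056 to 55091 in POU5F1-low cells and 5275 to 6450 in mouse barcodes.

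The label calls all these germ cells early oogonia, and the POU5F1-high cells carried the markers of that name. TFAP2C, SOX17, PRDM1, NANOG, PDPN and SOX15 together reached 995 to 1059 CPM in POU5F1-high cells, 122 to 132 CPM in POU5F1-low cells and 6.93 to 15.3 CPM in mouse barcodes. Summed CPM of 10 meiotic genes was 156 to 236 in POU5F1-high cells and 705 to 835 in POU5F1-low cells. By these markers the POU5F1-low cells as a sum went against that label. Single POU5F1-low cells varied widely. In E13.5 the 94 with the lowest meiotic sum had 59.1 to 311 CPM, and the 93 with the highest had 896 to 15030 CPM. How many single cells went against the label was not counted. Summed CPM of 10 mitotic genes was 1117 to 1486 in POU5F1-high cells and 2033 to 2548 in POU5F1-low cells. Of the 2186 germ cells, 669 had a barcode that a second library also held, and in no case was that second barcode a germ cell. In each of these 669 the germ cell was the larger of the barcodes; over all such barcodes, the smaller held a median of 1.85% of the UMIs of the larger. The sharing was uneven, with 10 of the 463 POU5F1-high cells affected and 14.6 to 56.9% of the POU5F1-low cells of a library. Without shared barcodes the POU5F1-high share was 25.6%, 29.1% and 31.9% in the E13.5, E14.5 and E15.5 libraries.

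All 8 genes were at 2-fold or more higher CPM in POU5F1-high than in POU5F1-low cells in each of the 3 libraries, which is how they had been picked; 4.37% of the 8191 genes at 20 CPM or more in at least 1 of the sums met the same rule. Their median log2 ratio of CPM + 1 was 3.77, against -0.41 for those 8191 genes. Without the barcodes shared between libraries all 8 still met it, with mean log2 ratios of 5.05 for GPHA2, 5.37 for ACTG2, 4.13 for APOBEC3H, 3.64 for TCL1B and 3.02 to 3.60 for the 4 others. By the size of this ratio ACTG2 stood at place 2, GPHA2 at 4, APOBEC3H at 6, TCL1B at 16, RAB43 at 21, FERMT1 at 26, DPEP2 at 32 and IFITM1 at 39.

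**Figure D1:**
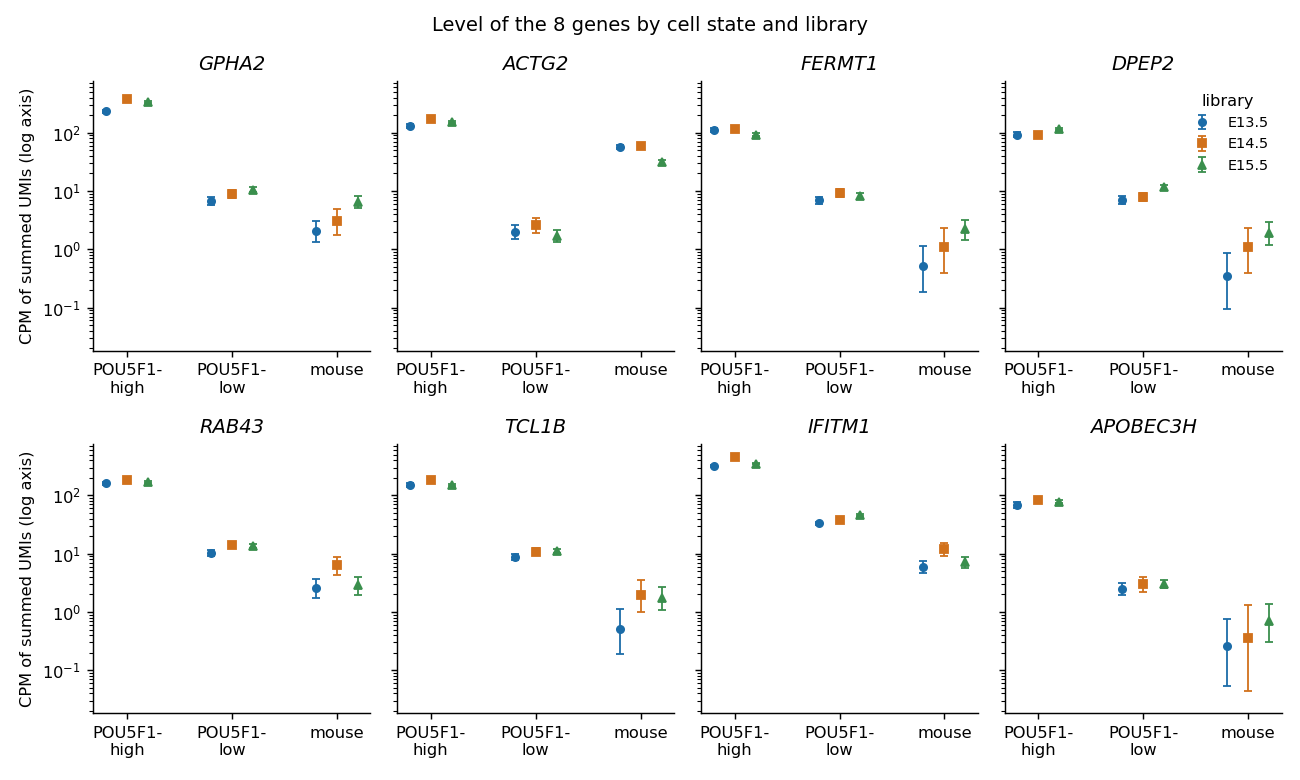
CPM of summed UMIs (log axis) of the 8 genes in POU5F1-high germ cells, POU5F1-low germ cells and mouse barcodes. Each point is 1 library and each bar its exact 95% Poisson interval, for counting error alone; POU5F1-high cells lie above POU5F1-low cells in every panel, and ACTG2 has mouse barcodes above POU5F1-low cells.

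GPHA2 encodes the alpha subunit of thyrostimulin, a glycoprotein hormone that pairs it with GPHB5 and acts on the thyrotropin receptor TSHR. It stood at 234, 383 and 339 CPM in POU5F1-high cells of the E13.5, E14.5 and E15.5 libraries, against 6.70, 8.97 and 10.5 CPM in POU5F1-low cells. The mean log2 ratio was 5.03 ± 0.21 (SD, n = 3 libraries), about 32.6-fold. POU5F1-high cells held 85.3 to 94.5% of all GPHA2 UMIs found in germ cells. After thinning each cell to 10000 UMIs, 70.4%, 79.9% and 80.6% of POU5F1-high cells had a GPHA2 UMI, against 6.87%, 8.82% and 9.30% of POU5F1-low cells. Mouse barcodes deep enough for the same thinning gave 2.71%, 1.39% and 4.97%, and their exact intervals overlapped those of the POU5F1-low cells in E13.5 and E15.5 but not in E14.5.

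The partner and receptor genes of GPHA2 were close to absent. GPHB5 averaged 0.170 ± 0.151 CPM in POU5F1-high cells and 0.0690 ± 0.0609 CPM in POU5F1-low cells (SD, n = 3). TSHR had no UMI in POU5F1-high cells of any library and 0.193 ± 0.124 CPM in POU5F1-low cells (SD, n = 3). CGA, the alpha subunit shared by the classical glycoprotein hormones, likewise had none in POU5F1-high cells, with 0.680 ± 0.744 CPM in POU5F1-low cells. The 3 counts that a result of 0 allows correspond to 0.669, 0.431 and 0.213 CPM in POU5F1-high cells of the E13.5, E14.5 and E15.5 libraries.

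ACTG2 encodes the gamma actin of smooth muscle. It stood at 133, 169 and 152 CPM in POU5F1-high cells of the E13.5, E14.5 and E15.5 libraries, against 1.97, 2.59 and 1.68 CPM in POU5F1-low cells. The mean log2 ratio was 5.63 ± 0.18 (SD, n = 3 libraries), about 49.6-fold. It was also widespread in mouse barcodes, at 56.0, 58.3 and 31.2 CPM, so its order was POU5F1-high, mouse, POU5F1-low in each library with no overlap of counting intervals. A UMI was found after thinning in 42.3%, 58.3% and 58.9% of POU5F1-high cells, 1.07%, 1.51% and 1.63% of POU5F1-low cells and 37.6%, 44.4% and 24.5% of mouse barcodes. The share in POU5F1-low cells lay below that of the mouse barcodes. Within POU5F1-low cells, ACTG2 was at 4.26, 3.797 and 2.53 CPM in the 3 libraries in the part with the most POU5F1, against 0.363 to 2.79 CPM in the other parts, nearly all of whose cells had no POU5F1 UMI. Few cells carried these values. An ACTG2 UMI was found without thinning in 16 of 466 POU5F1-low cells of E13.5, where the highest cell had 573 CPM. In E14.5 it was 25 of 397 cells, with 268 CPM in the highest, and in E15.5 57 of 860, with 98.4 CPM.

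Smooth muscle markers were low in both germ cell states. The summed CPM of ACTA2, MYH11, TAGLN, CNN1, DES, LMOD1, MYLK and SYNPO2 was 29.5 to 40.0 in POU5F1-high cells, 51.0 to 60.8 in POU5F1-low cells and 238 to 297 in mouse barcodes. ACTA2, the smooth muscle alpha actin, averaged 8.08 CPM in POU5F1-high cells, 11.0 CPM in POU5F1-low cells and 129 CPM in mouse barcodes. MYH11, the smooth muscle myosin heavy chain, averaged 0.265, 0.817 and 12.2 CPM in the same order. TAGLN, an actin-binding protein of smooth muscle, rose with both scalings, as ACTG2 was higher, at 3.85 ± 1.18 CPM in POU5F1-high cells and 1.98 ± 0.04 CPM in POU5F1-low cells (log2 fold change 1.4997 ± 0.26 SE, edgeR adjusted p = 6.91e-05). DES and MYLK fell, and SYNPO2, too low to test, had 0.462 ± 0.194 CPM in POU5F1-high cells and 0.164 ± 0.108 CPM in POU5F1-low cells. Without the germ cells high in supporting cell and stroma markers the ACTG2 log2 ratio was 5.83. Whether other cells take part in the ACTG2 signal of mouse barcodes was not tested; there, barcodes with an ACTA2 UMI had 83.9, 70.3 and 49.9 CPM of ACTG2 and those without one 51.0, 54.4 and 28.6 CPM, in the order of the mouse stages.

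FERMT1 encodes kindlin-1, which binds integrin beta tails and activates integrins in epithelia. It stood at 112, 116 and 92.1 CPM in POU5F1-high cells, against 6.88, 9.20 and 8.20 CPM in POU5F1-low cells (E13.5, E14.5, E15.5), a mean log2 ratio of 3.57 ± 0.25 (SD, n = 3). Mouse barcodes had 0.513, 1.08 and 2.19 CPM. The 3 levels therefore kept the order POU5F1-high, POU5F1-low, mouse in every library without overlap of their counting intervals. A FERMT1 UMI was found after thinning in 54.5 to 56.8% of POU5F1-high cells, 6.80 to 6.98% of POU5F1-low cells and 0.452 to 2.48% of mouse barcodes.

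DPEP2 encodes a membrane-bound dipeptidase that can convert leukotriene D4 to E4, best known from leukocytes. It stood at 92.2, 91.9 and 116 CPM in POU5F1-high cells, against 7.03, 7.88 and 11.6 CPM in POU5F1-low cells, which gives 3.38 ± 0.16 for the mean log2 ratio (SD, n = 3). Mouse barcodes had 0.342, 1.08 and 1.93 CPM, below both germ cell states. Leukocyte markers were low in both states: the summed CPM of 10 of them was 19.7 to 25.4 in POU5F1-high cells, 18.6 to 22.5 in POU5F1-low cells and 2.22 to 23.5 in mouse barcodes. Of these markers, CSF1R and LAPTM5 had no UMI in POU5F1-high cells of any library, and averaged 0.265 and 0.0316 CPM in POU5F1-low cells. PTPRC, CD68, AIF1, TYROBP, FCER1G and LYZ had UMIs in POU5F1-high cells, averaging 0.0953 to 0.315 CPM. The sum came mostly from CD14, a co-receptor for bacterial lipopolysaccharide, with 13.2 CPM in POU5F1-high cells and 1.19 CPM in POU5F1-low cells, and from CD163, a scavenger receptor of macrophages, with 8.80 and 14.2 CPM. Their part in the DPEP2 level was not tested.

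RAB43 encodes a small GTPase of endoplasmic reticulum to Golgi and Golgi traffic. It stood at 161, 185 and 171 CPM in POU5F1-high cells, against 10.3, 14.3 and 13.6 CPM in POU5F1-low cells and 2.57, 6.28 and 2.89 CPM in mouse barcodes. POU5F1-high over POU5F1-low, this is a mean log2 ratio of 3.67 ± 0.15 (SD, n = 3). It was the most evenly spread of the 8 over single POU5F1-high cells by the ratio of the quartiles: the quartiles over cells were 116 and 210 CPM in E13.5, against 0 and 176 CPM for ACTG2. A RAB43 UMI was found after thinning in 81.3 to 84.5% of POU5F1-high cells, 8.80 to 12.3% of POU5F1-low cells and 2.26 to 3.90% of mouse barcodes.

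TCL1B belongs to the TCL1 family, whose proteins bind the kinase AKT and enhance its activity, and which is known from early embryos and lymphoid tumours. It stood at 153, 187 and 151 CPM in POU5F1-high cells, against 8.74, 10.8 and 11.2 CPM in POU5F1-low cells and 0.513, 1.97 and 1.75 CPM in mouse barcodes. The mean log2 ratio of POU5F1-high over POU5F1-low was 3.87 ± 0.20 (SD, n = 3). A TCL1B UMI was found after thinning in 66.0 to 71.2% of POU5F1-high cells, 6.87 to 9.57% of POU5F1-low cells and 0.452 to 1.39% of mouse barcodes.

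IFITM1 encodes an interferon-induced transmembrane protein that hinders the entry of viruses, and in the mouse it is found on primordial germ cells. It stood at 320, 459 and 350 CPM in POU5F1-high cells, against 33.2, 37.4 and 45.5 CPM in POU5F1-low cells and 5.99, 12.02 and 7.10 CPM in mouse barcodes. The mean log2 ratio of POU5F1-high over POU5F1-low was 3.24 ± 0.33 (SD, n = 3), the smallest of the 8. A UMI was found after thinning in 85.9%, 87.8% and 90.5% of POU5F1-high cells, 23.6%, 28.5% and 32.0% of POU5F1-low cells and 5.88%, 6.25% and 6.38% of mouse barcodes. The share in POU5F1-low cells was above that of the mouse barcodes in every library, without overlap of the exact intervals.

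APOBEC3H encodes a cytidine deaminase that restricts retroviruses and retroelements. It stood at 69.0, 84.7 and 77.3 CPM in POU5F1-high cells, against 2.53, 2.99 and 3.04 CPM in POU5F1-low cells and 0.257, 0.359 and 0.701 CPM in mouse barcodes. Its mean log2 ratio of POU5F1-high over POU5F1-low was 4.34 ± 0.08 (SD, n = 3), with the smallest spread between libraries. A UMI was found after thinning in 43.7 to 46.8% of POU5F1-high cells and 1.72 to 3.37% of POU5F1-low cells. Mouse barcodes gave 0 of 221, 1 of 144 and 0 of 282, and the exact upper limits of the zeros are 1.66% and 1.30%. Near-identical copies lie in the APOBEC3 and IFITM families, and how reads were shared among copies was not given in the sources used here, so the counts of these genes are uncertain to that extent.

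Without thinning, the share of cells with a UMI ran over the 8 genes from 73.2 to 100% in POU5F1-high cells, from 3.43 to 71.4% in POU5F1-low cells and from 0.133 to 31.3% in mouse barcodes. ACTG2 was also the only one of the 8 at 20 CPM or more in mouse barcodes of every library, while 52.7% of the 5720 genes at 20 CPM or more in POU5F1-high cells of every library were. For the 7 others, mouse barcodes held 0.257 to 12.02 CPM. In E14.5, 8 barcodes held 79.1% of the IFITM1 and 82.9% of the RAB43 UMIs of all mouse barcodes, and 1 barcode alone held 21 IFITM1 UMIs.

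Many POU5F1-high cells had UMIs of several of the 8 genes. The genes were picked for being highest in early germ cells, so the difference between states is again a description. How often the genes would meet in a cell by their single levels was not computed. After thinning to 10000 UMIs, 4 or more of the 8 had a UMI in 78.9%, 81.3% and 87.7% of POU5F1-high cells of the E13.5, E14.5 and E15.5 libraries, against 0.215%, 0.756% and 1.51% of POU5F1-low cells. Mouse barcodes gave 0 of 221, 1 of 144 and 0 of 282. All 8 were found in 6, 10 and 27 POU5F1-high cells and in no POU5F1-low cell. The median POU5F1-high cell had 5, 6 and 5 of the genes, against 0, 1 and 1 in the median POU5F1-low cell. Of the POU5F1-high cells, 1 had none of the 8.

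**Figure D2:**
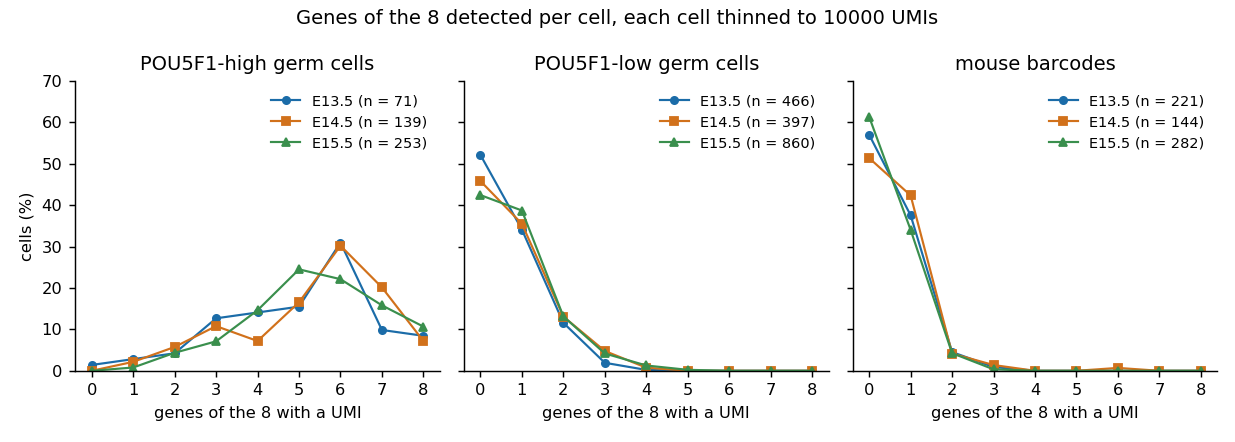
Percent of cells (vertical axis) with 0 to 8 of the genes detected (horizontal axis) after each cell was thinned to 10000 UMIs, for POU5F1-high cells, POU5F1-low cells and mouse barcodes, 1 line per library. POU5F1-high cells peak at 5 or 6 genes and the other barcodes at 0.

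Within the POU5F1-high cells the 8 genes followed POU5F1 to unequal degrees. When these cells were split into 3 equal parts by their POU5F1 CPM in each library, APOBEC3H was 1.77 ± 0.28 higher on the log2 scale in the top than in the bottom part (SD, n = 3 libraries). The same log2 ratio was 1.72 ± 0.15 for TCL1B, 1.71 ± 0.25 for GPHA2, 1.53 ± 0.39 for FERMT1, 1.48 ± 0.13 for IFITM1 and 1.42 ± 0.62 for ACTG2. RAB43 and DPEP2 had smaller ratios, 0.74 ± 0.004 and 0.49 ± 0.10. DPEP2 thus already stood at 80.2 ± 11.6 CPM in the bottom part, against 114 ± 24.6 CPM in the top one, whereas TCL1B had 77.3 ± 7.16 CPM in the bottom part and 259 ± 43.8 CPM in the top one. POU5F1 itself, on which the cells were sorted, differed by 1.73 ± 0.12.

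**Figure D3:**
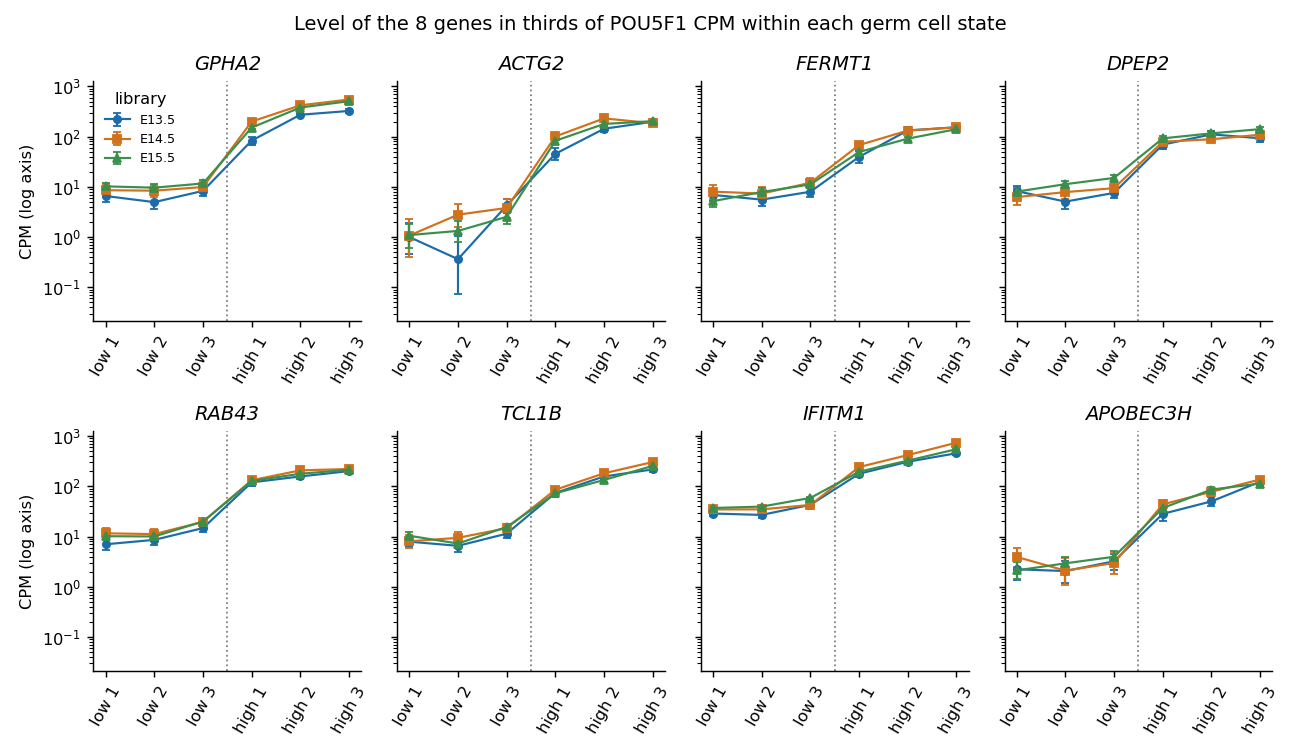
CPM (log axis) of the 8 genes in 3 equal parts of POU5F1-low and of POU5F1-high cells ordered by POU5F1 CPM, 1 line per library; bars are exact 95% Poisson intervals and the dotted line is the split. Levels stay low over the POU5F1-low parts and are higher in each POU5F1-high part, with the smallest differences among those parts for DPEP2 and RAB43.

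Cells next to the split differed less than the groups as a whole. The 50 POU5F1-high cells nearest to it had 214 to 420 CPM of POU5F1, and the 50 POU5F1-low cells nearest to it had 105 to 207 CPM. GPHA2 was at 93.1 CPM just above the split and 21.7 CPM just below it, and ACTG2 at 43.9 and 7.25 CPM. The others were closer: FERMT1 at 29.6 and 25.005 CPM, DPEP2 at 57.4 and 40.2 CPM, RAB43 at 101 and 63.8 CPM. TCL1B had 49.9 CPM above and 36.2 CPM below, IFITM1 164 and 121 CPM, and APOBEC3H 18.5 and 11.2 CPM.

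Across single POU5F1-high cells, 26 of the 28 pairs among the 8 genes had a positive Spearman rho in all 3 libraries, over 71, 139 and 253 cells. The median of the 28 mean rho values was 0.31, and the cells of a library share its preparation, so this is a description. All 8 also had a positive mean rho with POU5F1 in these cells. The share of positive pairs among other genes was not computed, so the count cannot be called particular to the 8. GPHA2 with IFITM1 was the closest pair at 0.50, followed by GPHA2 with ACTG2 at 0.45. ACTG2 with DPEP2 had -0.07, negative in each library, and DPEP2 with IFITM1 had 0.04 with mixed signs. With POU5F1 the mean rho was 0.61 for TCL1B and 0.59 for GPHA2, and 0.23 for DPEP2. With the depth of the cell it lay between -0.09 for DPEP2 and 0.19 for ACTG2. In single libraries rho with depth ran from -0.27 for DPEP2 in E15.5 to 0.30 for ACTG2 in E13.5. POU5F1 itself had 0.32 with depth in E13.5.

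The genes also differed along the cell cycle of the POU5F1-high cells. Split into 3 equal parts by the summed CPM of 10 mitotic genes, IFITM1 had 508 ± 97.3, 364 ± 76.2 and 274 ± 52.3 CPM in the lowest, middle and highest part (SD, n = 3 libraries). TCL1B had 201 ± 17.98, 162 ± 23.5 and 133 ± 27.7 CPM in the same parts. DPEP2 had 116 ± 30.7, 122 ± 5.61 and 65.4 ± 11.2 CPM and FERMT1 114 ± 11.5, 130 ± 22.0 and 78.9 ± 20.6 CPM. Both were lowest in the most mitotic part in every library, and in E15.5 they were already lower in the middle part, with DPEP2 at 152, 126 and 77.5 CPM and FERMT1 at 125, 105 and 55.2 CPM. ACTG2 had 153 ± 33.0, 152 ± 24.4 and 149 ± 7.24 CPM, within the spread of the libraries.

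In POU5F1-low cells the remaining levels were lower at high meiotic gene expression for some members and not for others. Ordered into 5 equal parts by the summed CPM of 10 meiotic genes, IFITM1 had 63.1 ± 12.4, 45.6 ± 8.53, 30.3 ± 4.92, 30.0 ± 5.57 and 23.5 ± 6.34 CPM from the lowest to the highest part (SD, n = 3 libraries). RAB43 had 21.8 ± 3.51 CPM in the lowest and 7.96 ± 2.12 CPM in the highest part, and TCL1B 17.5 ± 1.85 and 4.93 ± 1.68 CPM. APOBEC3H had 4.13 ± 1.25 and 1.78 ± 0.18 CPM at the same ends. POU5F1 moved with them, with 24.9 ± 1.49 CPM in the lowest and 5.12 ± 2.77 CPM in the highest part. GPHA2 had 12.2 ± 4.09 CPM in the lowest part, 5.91 to 7.32 CPM in the middle 3 parts and 11.7 ± 2.95 CPM in the highest. By the mean, FERMT1 was highest in the most meiotic part at 11.0 ± 0.54 CPM, against 8.20 ± 2.42 CPM in the least meiotic one. In E14.5 alone, its part 2 had 11.0 CPM and the most meiotic part 10.8 CPM. DPEP2 had 10.7 ± 2.05 CPM in the most and 11.1 ± 8.22 CPM in the least meiotic part, but the libraries differed in direction. From the least to the most meiotic part, DPEP2 went from 5.44 to 12.2 CPM in E13.5. The same ends were 7.31 and 8.37 CPM in E14.5, and 20.5 and 11.4 CPM in E15.5.

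The mouse stages were compared next, with 1 library each and hence no test. Within POU5F1-high cells none of the 8 genes was 2-fold apart between any of the 3 pairs of libraries. The share of all genes at 20 CPM or more that was 2-fold apart was 0.684% for E14.5 over E13.5, 0.392% for E15.5 over E13.5 and 0.659% for E15.5 over E14.5. GPHA2 came nearest, with a log2 ratio of 0.71 for E14.5 over E13.5, above which 0.808% of the 6435 genes lay; their median was -0.10. IFITM1 had 0.52 in that pair and ACTG2 0.35, and DPEP2 and FERMT1 had 0.00 and 0.05. For E15.5 over E13.5 the ratios ran from -0.28 for FERMT1 to 0.53 for GPHA2, and for E15.5 over E14.5 from -0.39 for IFITM1 to 0.33 for DPEP2. DPEP2 was the one member higher in E15.5 than in E14.5; with the POU5F1 split at 1000 CPM, APOBEC3H also had a ratio just above 0 in that pair, 0.015.

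**Figure D4:**
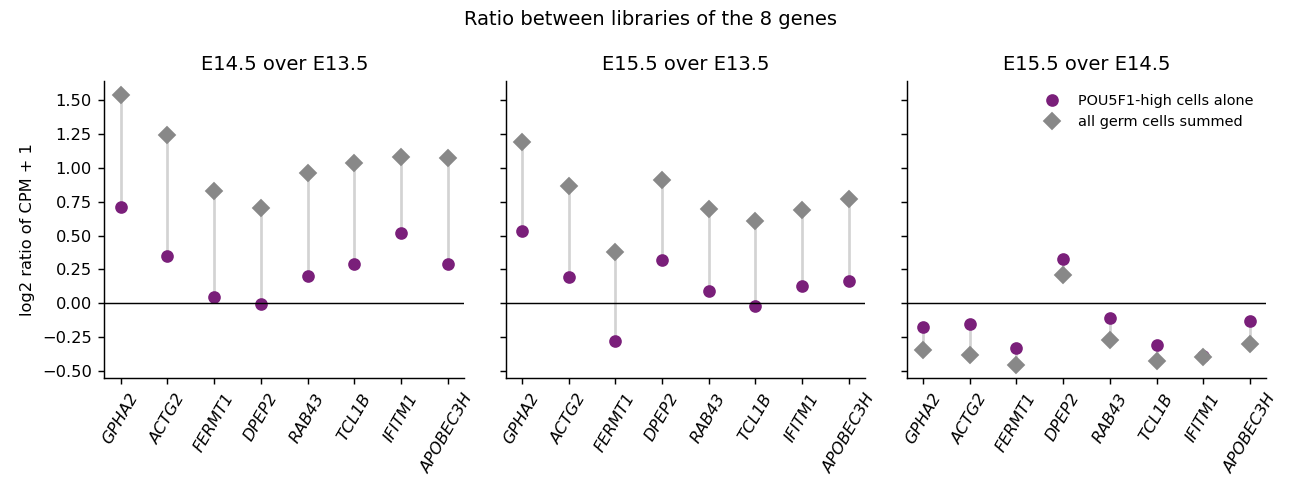
Log2 ratio of CPM + 1 (vertical axis) between pairs of libraries for the 8 genes, in POU5F1-high cells alone (circles) and in all germ cells summed (diamonds). The summed ratios of E14.5 and E15.5 over E13.5 lie above those of the POU5F1-high cells.

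Summing all germ cells of a library gave larger ratios, since the share of POU5F1-high cells enters the sum. For E14.5 over E13.5 the summed log2 ratio was 1.54 for GPHA2, 1.24 for ACTG2 and 1.08 for IFITM1, and it ran from 0.70 to 1.07 for the 5 others. With both states weighted to 1 common share in all libraries, the same ratios were 0.68, 0.34 and 0.43. This weighting does not match the POU5F1 level within a state. For E15.5 over E13.5, GPHA2 had 1.19 summed and 0.54 at the common share. Because the sort and the mixing precede the library, and barcodes were shared between libraries, the difference in share itself cannot be told apart from these steps.

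Genes related to the 8 by family or pathway were tested with edgeR's quasi-likelihood test on 6 sums, POU5F1-high and POU5F1-low cells of the 3 libraries, with the library as a block. Over all 16506 genes tested, 35.1% were called higher and 35.2% lower in POU5F1-high cells at an adjusted p under 0.05. These shares depended on the scaling. The 50 most abundant genes held 28.2 to 31.0% of UMIs in POU5F1-high cells, against 18.2 to 20.7% in POU5F1-low cells, with RPS12, RPLP1 and EEF1A1 of the translation machinery among those that took more. With library totals in place of edgeR's TMM factors the median log2 fold change of all genes was -0.57 instead of -0.02, and 15.9% were called higher and 60.4% lower. A call given below with no further remark was made with both scalings; log2 fold changes are those with TMM factors.

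Outside the early germ cell genes, 59 related genes could be tested: 25 were called higher and 17 lower with TMM factors, and 11 higher and 32 lower with library totals. The same direction under both was found for 11 higher and 17 lower. The shares with TMM factors, 42.4% higher and 28.8% lower, lie near the 35.1% and 35.2% of all genes tested, so the counts say nothing particular about these relatives.

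**Figure D5:**
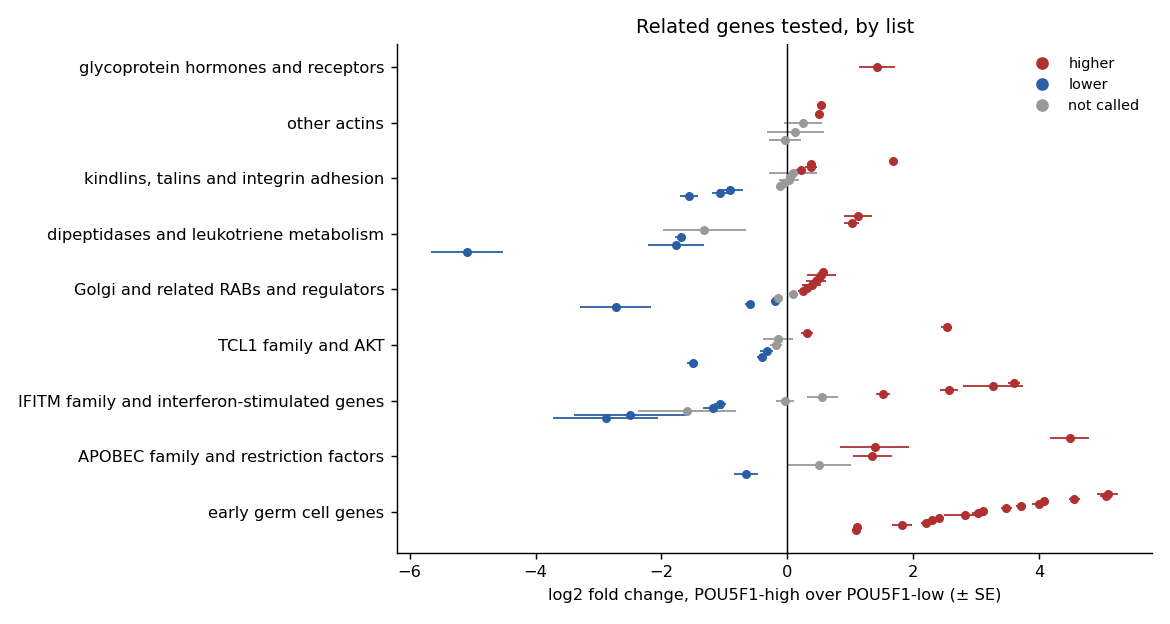
Log2 fold change of POU5F1-high over POU5F1-low cells (horizontal axis, with TMM factors; bars are standard errors) of the 75 related genes tested, grouped by list; colours give edgeR's call at an adjusted p under 0.05. All 16 early germ cell genes lie right of 0, and the other lists hold genes on both sides, except the hormone list, with 1 gene tested, and the actins, where no call was made on the left.

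Of 8 glycoprotein hormone and receptor genes, 7 were too low to test. LHB, the luteinizing hormone beta subunit, rose by edgeR (log2 fold change 1.42 ± 0.29 SE, adjusted p = 0.000327), at 2.71 ± 1.21 CPM in POU5F1-high cells and 1.49 ± 0.47 CPM in POU5F1-low cells (SD, n = 3). Of the 5 other actins none was called with both scalings. The cytoplasmic actins ACTB and ACTG1 were called higher with TMM factors alone, although their CPM was nearly level: ACTB had 676 ± 146 CPM in POU5F1-high cells and 700 ± 130 CPM in POU5F1-low cells. ACTA1, ACTA2 and ACTC1 were not called.

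Among 12 tested genes of integrin adhesion, 1 rose and 3 fell with both scalings. ITGA6, the alpha 6 integrin, rose (1.67 ± 0.06 SE, edgeR adjusted p = 2.84e-13; 310 ± 12.5 CPM in POU5F1-high cells, 143 ± 9.47 CPM in POU5F1-low cells). PARVA, which links integrins to actin, fell (-1.56 ± 0.15 SE, edgeR adjusted p = 6.23e-08). ITGB5 and ITGAV fell as well. The other kindlins did not follow FERMT1: FERMT2 had 76.9 ± 2.31 CPM in POU5F1-high cells and 110 ± 13.6 CPM in POU5F1-low cells, and FERMT3 1.14 ± 0.42 and 1.54 ± 0.31 CPM. FERMT2 was not called with TMM factors (edgeR adjusted p = 0.564) and lower with library totals. ITGB1, the beta 1 integrin that kindlins bind, was not called either (-0.11 ± 0.06 SE, edgeR adjusted p = 0.104; 295 ± 40.5 and 468 ± 71.8 CPM), and was lower with library totals.

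DPEP3, the dipeptidase gene next to DPEP2, went the other way from it, and fell to 38.8 ± 10.4 CPM in POU5F1-high cells, against 183 ± 17.8 CPM in POU5F1-low cells (-1.70 ± 0.08 SE, edgeR adjusted p = 1.14e-11). ALOX5, the 5-lipoxygenase that starts leukotriene synthesis, fell most of the related genes, with 0.0474 ± 0.0821 CPM in POU5F1-high cells and 3.66 ± 1.06 CPM in POU5F1-low cells (-5.09 ± 0.57 SE, edgeR adjusted p = 4.80e-07). ALOX5AP, its activating protein, fell as well, and LTA4H and GGT1, which act later in leukotriene metabolism, rose by 1.02 ± 0.12 and 1.12 ± 0.22 on the log2 scale. LTC4S was not called with TMM factors.

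No Golgi RAB or RAB regulator rose with both scalings among 12 tested, and 3 fell: RAB2A, RAB18 and RAB41. Another 7 were called higher with TMM factors and not with library totals, RAB10 among them at 141 ± 4.74 CPM in POU5F1-high cells and 140 ± 3.69 CPM in POU5F1-low cells. Of these, RAB1B and RAB6A were lower with library totals. In the TCL1 family, TCL1A rose beside TCL1B (2.53 ± 0.09 SE, edgeR adjusted p = 1.37e-13; 57.7 ± 1.14 CPM in POU5F1-high cells, 14.7 ± 0.69 CPM in POU5F1-low cells). MTCP1, the third family member listed, fell (-1.50 ± 0.09 SE, edgeR adjusted p = 1.87e-10; 25.1 ± 7.30 and 105 ± 10.8 CPM).

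Of 11 interferon-stimulated genes tested, 4 were higher and 4 lower, which is 36.4% each way and close to the shares of all genes, 35.1% and 35.2%. BST2, which tethers budding viruses, rose (3.60 ± 0.09 SE, edgeR adjusted p = 3.18e-15; 87.9 ± 6.76 CPM in POU5F1-high cells, 10.7 ± 2.36 CPM in POU5F1-low cells). ISG15, MX1 and the bone-restricted family member IFITM5 rose too, by 2.57 ± 0.14, 1.52 ± 0.11 and 3.27 ± 0.48, with IFITM5 at only 2.34 ± 1.64 CPM in POU5F1-high cells. IFITM2 and IFITM3 had no feature of that name. IRF1, a transcription factor of the interferon response, fell by 1.18 ± 0.16, and STAT2 and IRF9 were not called with TMM factors. MX2 and IFIT2 fell at levels below 1 CPM.

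Of the APOBEC family, APOBEC3F rose beside APOBEC3H (4.49 ± 0.31 SE, edgeR adjusted p = 8.97e-10; 6.10 ± 0.77 CPM in POU5F1-high cells, 0.372 ± 0.137 CPM in POU5F1-low cells). APOBEC3G, the gene between them, was not called, at 0.551 ± 0.316 and 0.638 ± 0.105 CPM. APOBEC3A, APOBEC3B, APOBEC3C and APOBEC3D, like APOBEC1, were below the limit for testing. TRIM5 rose and SAMHD1 fell, both restriction factors of retroviruses.

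All 16 listed early germ cell genes rose. The cells had been split on POU5F1, which belongs to the same programme, and the list was chosen with earlier results of these data known, so this count is no independent evidence. DNMT3L, the cofactor of de novo DNA methylation, rose by 5.09 ± 0.17 on the log2 scale, and SOX15 by 5.07 ± 0.10. NANOG rose by 4.56 ± 0.08, TFAP2C by 4.07 ± 0.08, KHDC3L by 4.004 ± 0.11 and PDPN by 3.71 ± 0.08. UTF1 and TFCP2L1 rose by 3.48 ± 0.08 and 3.11 ± 0.07, with 614 ± 70.1 and 242 ± 17.9 CPM in POU5F1-high cells. KIT, the receptor of stem cell factor, and LIN28A rose least, by 1.09 ± 0.07 and 1.10 ± 0.06.

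Genes next to the 8 on the chromosome were looked at after the other results were known, using gene order in the RefSeq table of assembly T2T-MFA8v1.1. Among the 2 nearest protein-coding genes on each side, 32 in all, 25 could be tested; 13 were called higher and 7 lower with TMM factors, and 10 higher and 11 lower with library totals. Of all genes, 35.1% were higher and 35.2% lower with TMM factors, and 15.9% and 60.4% with library totals. A neighbour of APOBEC3H, PDGFB, which encodes the B chain of platelet-derived growth factor, rose (4.30 ± 0.17 SE; 28.9 ± 2.51 CPM in POU5F1-high cells, 2.18 ± 0.58 CPM in POU5F1-low cells), as did CBX7 and APOBEC3F there. PPP2R5B, whose annotation overlaps GPHA2, rose by 2.03 ± 0.18, at 10.0 ± 2.63 CPM in POU5F1-high cells, so reads of the pair may not be separable. BMP2 and LRRN4, on either side of FERMT1, fell by 2.24 ± 0.25 and 1.98 ± 0.29. Around ACTG2 none of the neighbours rose, and DGUOK fell by 0.46 ± 0.08. On either side of IFITM1, LOC102145938 and LOC102146935 each rose by 1.66 ± 0.07. LOC102145938 had 200 ± 12.5 CPM in POU5F1-high cells and 93.0 ± 7.70 CPM in POU5F1-low cells, and LOC102146935 458 ± 48.0 and 212 ± 7.52 CPM. Farther out, IFITM5 rose, and LOC102115008 fell, at 0.146 ± 0.076 and 0.759 ± 0.061 CPM. ISY1, next to RAB43, was higher with TMM factors alone, at 43.4 ± 1.14 CPM in POU5F1-high cells and 47.8 ± 3.47 CPM in POU5F1-low cells.

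Over 18 sums, the 3 libraries by both states and 3 parts of POU5F1 each, each of the 8 genes followed the mean log2 profile of the other 7 with a Pearson r between 0.981 for DPEP2 and 0.995 for GPHA2. These sums share cells' state and library, and most of the likeness is the step between states. Within the 9 sums of POU5F1-high cells, r was 0.708 for DPEP2 and 0.927 to 0.974 for the others. Among 5712 other genes at 20 CPM or more in POU5F1-high cells of every library, NANOG had the profile most like the mean of the 8, with r = 0.998. It was followed by KANK3, LOC101865759, PDPN, LY6E, NPC2, VASP, PLSCR3, ABCG1 and C11H12orf75, the last with r = 0.993. ABCG1, a cholesterol exporter, had the widest gap of these, at 53.3 ± 8.76 CPM in POU5F1-high cells and 0.644 ± 0.317 CPM in POU5F1-low cells (SD, n = 3). C11H12orf75 had the narrowest, at 149 ± 12.6 and 62.9 ± 3.61 CPM, which shows that r on this scale does not measure the size of the step.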

How the data were processed

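The deposited files hold UMI counts per monkey gene and barcode, which the authors produced from 10x Genomics 3' v3.1 libraries per the labels' protocols, using Cell Ranger 6.0.1 per the file headers; the build and annotation they counted on are not stated in the labels or files. The E13.5, E14.5 and E15.5 libraries held 44762884, 30607553 and 70850640 UMIs. From these, counts were summed per library and state and divided by all UMIs of the sum (CPM); log2 ratios used CPM + 1. The POU5F1 split was Otsu's threshold of log2(CPM + 50). No doublet caller was run. edgeR 4.0.16 (filterByExpr, TMM, Benjamini-Hochberg) tested genes other than POU5F1 on 6 sums, with the library as a block and 2 residual degrees of freedom. Its p-values set the difference between states against how much that difference varied over the 3 libraries, which also differ in mouse stage. That variation was estimated with information shared across genes, so small p-values do not rest on the 3 libraries alone. The edgeR fit was tested on simulated data. The members and lists were chosen with earlier results of these data known. Named related genes were the 12 called with the largest changes, and uncalled ones at 100 CPM or more; other relatives and the neighbours were named after their values were seen. Of 97 listed related genes, 94 had a feature. Poisson and binomial intervals (95%) cover counting error only. A symbol was looked up by gene number for 669 of the 9282 LOC features. Some genes of the related lists enter the counts and are not reported here by name.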

Additional observations from a re-analysis of the deposited data

Results flagged for a closer look

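Barcodes outside the comparisons also carried some of the 8 genes above their level in mouse barcodes. In 959 barcodes with 2 to 20% mitochondrial UMIs and under 10000 UMIs, IFITM1 was at 42.3 CPM over the 3 libraries, with a lower counting limit above the upper limit of the mouse barcodes in each. By mouse stage from E13.5 to E15.5 it was at 30.0, 69.5 and 44.7 CPM. Of the 959, 831 had a barcode that a larger POU5F1-low cell of another library held, and 10 one of a larger POU5F1-high cell. In the 117 of these barcodes that no other library held, IFITM1 was at 20.4 CPM from 7 UMIs, with 0 UMIs in E13.5. In E15.5 its lower limit there, 5.09 CPM, was below the upper limit of the mouse barcodes, 8.82 CPM.

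In 359 barcodes with over 20% mitochondrial UMIs, GPHA2 was at 45.0 CPM, FERMT1 at 15.7 CPM and DPEP2 at 28.1 CPM, again above mouse barcodes in every library. By mouse stage from E13.5 to E15.5, GPHA2 had 9.51, 33.3 and 79.3 CPM. In the 333 of these barcodes that no other library held, GPHA2 was at 52.3 CPM, FERMT1 at 17.4 CPM and DPEP2 at 31.0 CPM. Of the 108 GPHA2 UMIs there, 89 were in E15.5. In E13.5, GPHA2 had 5 UMIs, at 7.09 CPM (2.30 to 16.5), which overlapped the mouse barcodes with their upper limit of 3.06 CPM.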

How the results depend on the processing

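All 8 genes stayed 2-fold or more higher in POU5F1-high cells of every library under each alternative run. They had been picked for being highest in early germ cells. The runs used the same libraries, so this is a description and no independent evidence. In 8 cases a log2 ratio between libraries within POU5F1-high cells changed sign, all of values under 2-fold; with the POU5F1 split at 1000 CPM, APOBEC3H had 0.015 for E15.5 over E14.5 in place of -0.13, FERMT1 -0.06 for E14.5 over E13.5 in place of 0.05, and TCL1B 0.09 for E15.5 over E13.5 in place of -0.02. The other 5 were of DPEP2 for E14.5 over E13.5 and TCL1B for E15.5 over E13.5, at most 0.11 in size. The mean log2 ratio ran from 4.40 to 5.54 for GPHA2, 4.46 to 6.08 for ACTG2, 3.09 to 4.08 for FERMT1, 2.84 to 3.89 for DPEP2, 3.095 to 4.20 for RAB43, 3.46 to 4.39 for TCL1B, 3.02 to 3.78 for IFITM1 and 3.38 to 4.804 for APOBEC3H. With the POU5F1 split at 1000 CPM, POU5F1-high cells were 8.01%, 20.1% and 14.47% of germ cells by mouse stage from E13.5 to E15.5; without barcodes that another library also holds, a setting chosen after seeing the data, they were 25.6% in E13.5 and 31.9% in E15.5. Without normalization factors 2619 genes were higher and 9968 lower, and 27 related genes were higher and 32 lower; 4 related genes called higher with TMM factors were then called lower, RAB1B and RAB6A among them; the cause was not tested. Leaving out each library in turn, 4594 to 5295 genes were higher and 5271 to 5560 lower, and 33 to 38 related genes were higher and 16 to 19 lower. ITGB1, not called in the report, was called lower under 6 alternatives. A limit of 95% on the depth of germ cells, also chosen after seeing the data, left every count of calls within 1.5 times. No test between mouse stages was possible because each has 1 library. The POU5F1-high and POU5F1-low sums of a library were paired by the library block, except in the alternative run without that block. Low counts limit the mouse barcodes most: APOBEC3H there rested on 2 to 8 UMIs a library.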
